A study of Homo sapiens with 6 samples.

Results

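The ISG15 conjugation machinery is the set of 6 genes that make, attach and remove the ubiquitin-like protein ISG15. Its members were taken by symbol: the modifier ISG15 (Entrez gene 9636), the activating enzyme UBA7 (7318), the conjugating enzyme UBE2L6 (9246), the ligase HERC5 (51191), its relative HERC6 (55008) and the protease USP18 (11274). All 6 were found among the 23459 genes of the count table, and 3 of them had enough counts to be among the 12079 genes tested. RNA was sequenced from Raji, an established human line of Burkitt's lymphoma, a tumour of germinal centre B cells. The 3 control libraries came from cells given the empty lentiviral vector, and the 3 IRF4-overexpressing (IRF4-OE) libraries from cells given the vector with human IRF4 cDNA. Infection lasted 5 days and selection with 3 μg/ml puromycin 7 days in both groups, so control cells also carried an integrated vector and had been selected. Nothing in the labels says whether replicates were separate infections or cultures, so the p-values speak of the spread among libraries, part or all of which may be technical.

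ISG15 is induced by interferon and is joined to other proteins in a chain of steps like that of ubiquitin. UBA7, the E1 enzyme, activates ISG15; UBE2L6, the E2 enzyme, receives it; and HERC5, an E3 ligase of the HECT family that associates with ribosomes, passes it mainly to newly made proteins. USP18 cuts ISG15 off again, and apart from that activity it binds the type I interferon receptor subunit IFNAR2 together with STAT2 and dampens interferon signalling. In human cells HERC5 is regarded as the main ISG15 ligase. HERC6 is its neighbour on the chromosome and takes the main ligase role in mice.

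The machinery fell into 2 sets of 3 genes. The modifier, its E1 and its E2 were detected in every library and rose with IRF4, ISG15 3.65-fold, UBA7 3.12-fold and UBE2L6 1.70-fold. In bulk RNA, more cells that express a gene and more of its RNA per cell cannot be told apart. The ligase HERC5 had 0 counts in all 6 libraries, and HERC6 and USP18 had 24 and 12 counts in all, too few to be tested. For comparison, 2.98% of all tested genes were called higher (Benjamini-Hochberg adjusted p under 0.05 by edgeR's quasi-likelihood test) and 0.182% lower. Every IRF4-OE library lay above every control library for ISG15, UBA7 and UBE2L6, as it did for 13.5% of tested genes.

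The sequences just before the starts of ISG15 and HERC5 are shown because they carry matches to the same interferon motif while the former gene rose and the latter had no counts. RefSeq promoter windows (GRCh38.p14) matched 4 of the 6 members, ISG15, UBE2L6, HERC5 and HERC6. Each window ran from 250 bases before the gene's start to 50 after, and the 250 bases before the start are printed here. Capitals mark matches to GAAANNGAAA, the core of the interferon-stimulated response element, which reads TTTCNNTTTC on the other strand. The ISG15 stretch is chr1:1013247-1013496 on the + strand, and the HERC5 stretch is chr4:88456869-88457118 on the + strand.
ISG15: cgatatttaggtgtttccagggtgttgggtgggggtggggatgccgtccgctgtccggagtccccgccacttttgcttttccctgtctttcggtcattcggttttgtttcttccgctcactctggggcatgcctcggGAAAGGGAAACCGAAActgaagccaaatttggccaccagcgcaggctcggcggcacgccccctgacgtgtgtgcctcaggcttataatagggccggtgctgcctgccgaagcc
HERC5: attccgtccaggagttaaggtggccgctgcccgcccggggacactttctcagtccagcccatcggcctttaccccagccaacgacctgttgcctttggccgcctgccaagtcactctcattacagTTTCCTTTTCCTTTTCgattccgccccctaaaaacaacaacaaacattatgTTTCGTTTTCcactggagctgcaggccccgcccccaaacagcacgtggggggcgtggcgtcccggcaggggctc

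The ISG15 window held 2 overlapping matches on the printed strand, GAAAGGGAAA and GAAACCGAAA, which begin 113 and 107 bases before the start. The HERC5 window held 3 matches on the other strand. A pair of them, both GAAAAGGAAA, overlap within 125 to 110 bases before the start, and GAAAACGAAA lies 74 to 65 bases before it. Of 35116 promoter windows of the same length, 3.57% held at least 1 match on either strand. The HERC5 window also held 1 match to GGAANNGAAA, a composite of ETS and IRF factor sites that IRF4 can bind with a partner, overlapping the pair of interferon matches. That motif was in 2.82% of windows. The UBE2L6 windows, of which there were 2, and the HERC6 window held a match to neither. These are matches of letters; binding was not measured.

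Library facts bear on all values below. Totals ran from 27681979 to 46210702 counts per library, and values are given as CPM, read counts relative to the library size after scaling by edgeR's TMM method. IRF4 (Entrez gene 3662) was at 1.26 ± 0.203 CPM in control and 132 ± 15.8 CPM in IRF4-OE libraries (SD, n = 3 each), with reads of the vector's cDNA and of the endogenous gene added up. Within the groups the libraries fell along a shared axis, to which 74.3% of the within-group variance of log2 CPM belonged. Control replicate 1 and IRF4-OE replicates 2 and 3 lay on one side of it, and the other 3 libraries on the opposite side. The 9 B cell markers were all tested and summed to 2856 to 3017 CPM in control and 2997 to 3072 CPM in IRF4-OE libraries. Of 11 myeloid and dendritic, 9 T and NK, and 11 epithelial, fibroblast and kidney markers, 4, 3 and 6 were at 0 in every library. Their sums were at most 1.38, 0.438 and 1.23 CPM in control, and 2.43 to 4.94, 0.518 to 0.648 and 2.03 to 4.10 CPM in IRF4-OE libraries. All 3 non-B sums were higher in IRF4-OE libraries, as were ISG15, UBA7 and UBE2L6. The first and last of these sums were highest in IRF4-OE replicate 1. There the single genes CSF1R and COL1A1 gave 4.07 of 4.94 and 3.75 of 4.10 CPM. What part these sums have in the members' values was not tested.

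ISG15, the modifier, was at 18.8, 20.4 and 17.2 CPM in replicates 1, 2 and 3 of the control group, and at 48.2, 82.7 and 75.1 CPM in IRF4-OE replicates 1, 2 and 3. The groups did not overlap, and replicate 1 was the lowest of the IRF4-OE libraries. The means were 18.8 ± 1.61 and 68.6 ± 18.1 CPM (SD, n = 3 each). The log2 fold change came to 1.87 ± 0.21 (SE; adjusted p = 0.00607 by edgeR). IRF4-OE replicate 1 also lay on the opposite side of the axis from replicates 2 and 3, while in ISG15 level control replicate 1 lay between control replicates 2 and 3. The log2 fold change was 2.06 within the side of control replicate 1 and 1.40 within the side of IRF4-OE replicate 1. Each of these fits has a group with 1 library, and their difference was not tested. Without control replicate 1 its adjusted p was 0.0502 (edgeR), and it was called without each of the other 5 libraries in turn.

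UBA7 encodes the E1 enzyme dedicated to ISG15. It was at 1.39, 1.23 and 1.18 CPM in replicates 1, 2 and 3 of the control group, from 56, 33 and 43 counts. In IRF4-OE replicates 1, 2 and 3 it was at 4.27, 4.24 and 3.42 CPM, from 147, 157 and 165 counts. All 3 IRF4-OE libraries lay near each other and well above the controls. The log2 fold change was 1.64 ± 0.16 (SE; adjusted p = 0.00365 by edgeR), and it was called without each library in turn, at 1.57 to 1.75. The microRNA gene MIR5193 overlaps UBA7 and had 6 counts over all libraries. UBA7 passed the test at a level far below that of ISG15 or UBE2L6.

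UBE2L6 encodes the E2 enzyme and was the most abundant member in control cells, both in CPM and per length. It was at 99.0, 96.3 and 97.7 CPM in replicates 1, 2 and 3 of the control group, and at 171, 171 and 155 CPM in IRF4-OE replicates 1, 2 and 3. Control libraries differed by little, and the lowest IRF4-OE library was well above them. The log2 fold change was 0.76 ± 0.09 (SE; adjusted p = 0.0061 by edgeR). Without control replicate 1, 2 or 3 the value was 0.77, 0.75 and 0.76, and the edgeR adjusted p was 0.0502, 0.0654 and 0.054, so the call depended on having all 3 controls. Genes called higher over the whole table also fell, from 360 with all libraries to 125, 120 and 136 in these fits.

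**Figure D1:**
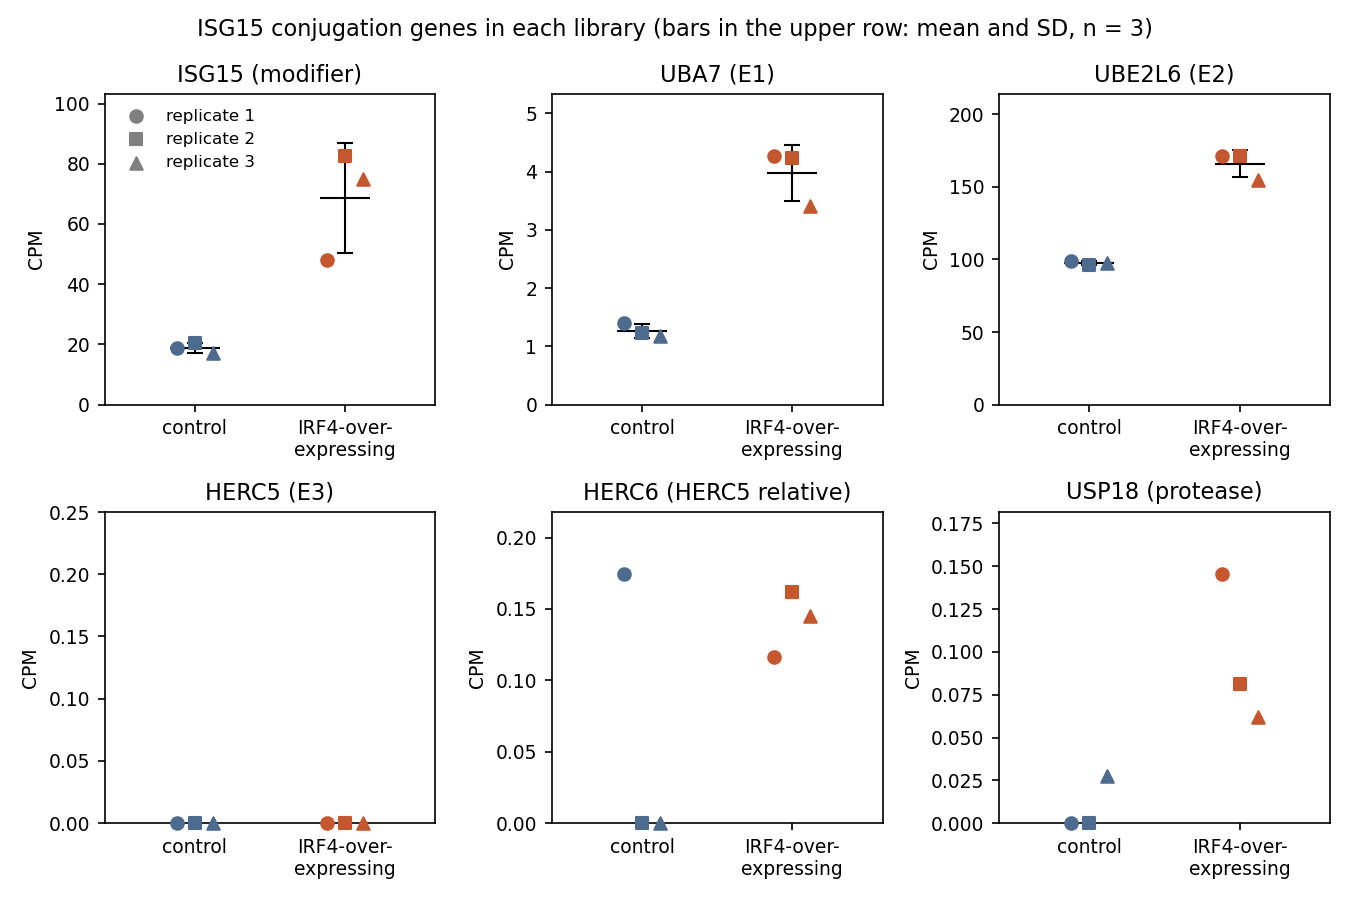
Each panel plots CPM (vertical axis, from 0, with its own range) of 1 member in the control and IRF4-OE libraries, with a marker shape for each replicate and, in the upper row, the mean and SD (n = 3). ISG15, UBA7 and UBE2L6 show no overlap between groups, HERC5 lies at 0 in all 6 libraries, and HERC6 and USP18 stay under 0.2 CPM.

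HERC5, the ligase, had 0 counts in each of the 3 control and 3 IRF4-OE libraries. Over the 222861192 counts of the table, a count of 0 allows a level of up to 0.0134 CPM over the 6 libraries (3 counts; counting error only). A count of 0 in every library was shared by 26.0% of the genes in the table. No 50-base stretch of the longest coding HERC5 transcript (GENCODE 29, 3513 bases) recurred in a transcript of another gene, and the same held for ISG15, UBA7 and UBE2L6.

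HERC6 had 7, 0 and 0 counts in replicates 1, 2 and 3 of the control group, and 4, 6 and 7 in IRF4-OE replicates 1, 2 and 3. Control replicate 1 alone held all control counts and was level with the IRF4-OE libraries, so the groups overlapped. The ratio of summed levels was 2.10, with an exact 95% counting interval (counting error only) of 0.829 to 6.00 that includes no change. By a two-sided exact permutation test over the libraries p = 0.4, where 0.1 is the smallest that 3 against 3 can give. In the 50-base comparison, 0.804% of HERC6 positions recurred in other genes' transcripts, most of them in HERC3.

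USP18, the ISG15 protease, had 0, 0 and 1 counts in replicates 1, 2 and 3 of the control group, and 5, 3 and 3 in IRF4-OE replicates 1, 2 and 3. Each IRF4-OE library was above each control, yet all were at most 0.145 CPM. The ratio of summed levels was 9.52, with an exact 95% counting interval of 1.38 to 409.8. That interval covers counting error only and leaves out the spread between libraries, so it is likely too narrow. The exact permutation test over libraries gave its smallest possible p = 0.1. With no filter on low counts, edgeR gave a log2 fold change of 2.88 (SE 1.09) with an unadjusted p = 0.0286 and an adjusted p = 0.265. USP18 thus did not pass the test at this depth. Near-identical sequence makes its value uncertain: 23.4% of the 50-base stretches of its transcript recurred in other genes, mostly in USP41, which was not analysed here. How such reads were counted is not given in the sources used here, while the remaining stretches were particular to USP18 among the transcripts searched.

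Levels of different genes were compared per kilobase of the deposited gene width. In control libraries the order of mean levels was UBE2L6 at 56.0 ± 0.762, ISG15 at 28.2 ± 2.42 and UBA7 at 0.382 ± 0.0344 CPM per kilobase (SD, n = 3 each). In IRF4-OE libraries ISG15 was at 103 ± 27.2, UBE2L6 at 95.2 ± 5.42 and UBA7 at 1.20 ± 0.146 CPM per kilobase (SD, n = 3 each). ISG15 and UBE2L6 did not differ beyond their spread there, since ISG15 was below UBE2L6 in replicate 1 (72.3 against 98.3) and above it in replicates 2 and 3 (124 against 98.3, and 113 against 88.9). Among all genes of the table ranked by level per kilobase, ISG15 went from place 2758 to 607 and UBE2L6 from 1347 to 665. UBA7 was at places 11042 and 10055 of 23459. HERC6 and USP18 had IRF4-OE means of 0.0262 and 0.0473 CPM per kilobase, and the limit for HERC5 was 0.00373.

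The ratio of 2 members within a library does not depend on how libraries are scaled. UBE2L6 exceeded UBA7 per kilobase by 135, 149 and 158 times in control replicates 1, 2 and 3, and by 76.3, 76.8 and 86.2 times in IRF4-OE replicates 1, 2 and 3. The log2 ratio was lower with IRF4 by a mean difference of -0.88, and the groups did not overlap. ISG15 over UBE2L6 was 0.497, 0.555 and 0.461 in controls and 0.735, 1.26 and 1.27 with IRF4, a log2 difference of 1.07. ISG15 over UBA7 was 67.1, 82.8 and 72.8 in controls and 56.1, 97.0 and 109 with IRF4, which overlap, with a log2 difference of 0.19. The two-sided exact permutation p-values were 0.1, 0.1 and 0.6, and 0.15, 0.15 and 0.6 after adjustment over the 3 pairs; 0.1 is the smallest this design allows. The groups thus did not overlap for either ratio with UBE2L6 and overlapped for ISG15 over UBA7. The difference between the pairs was not tested.

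**Figure D2:**
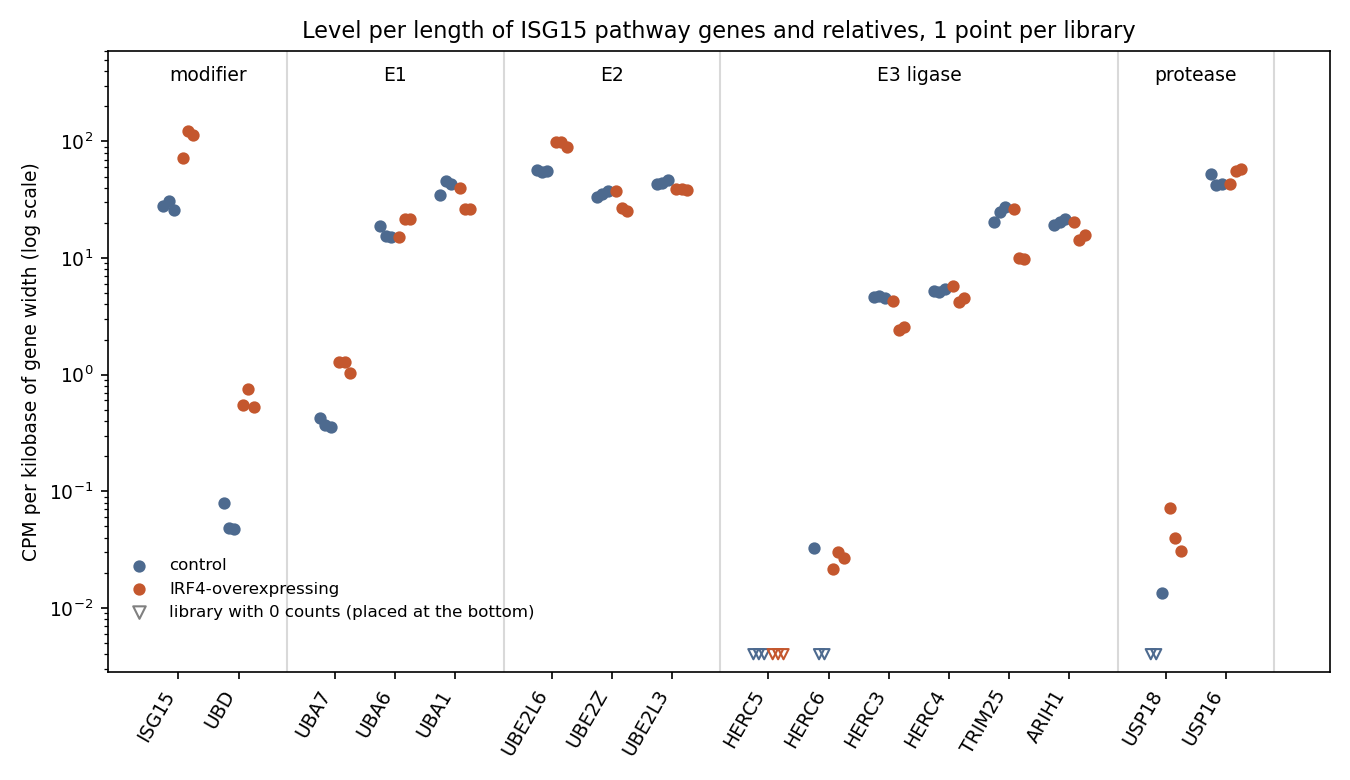
Points are libraries, with the level in CPM per kilobase of gene width on a log axis, for members and related genes grouped by role; open triangles mark libraries with 0 counts and are placed at the bottom of the axis. In IRF4-OE libraries ISG15 and UBE2L6, at means of 103 and 95.2, lie above UBA1 and UBE2L3, at 30.7 and 39.0; UBA7 is far lower, and HERC5, HERC6 and USP18 lie far below other ligases and the protease USP16.

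Their nearest relatives in the ubiquitin system were expressed and did not pass the test. For UBE2L3 and HERC3 every IRF4-OE library still lay below every control library, while for UBA1 and HERC4 the groups overlapped. The share of all tested genes with every IRF4-OE library below every control library was not counted. UBA1, the main E1 for ubiquitin, was at 41.4 ± 5.79 and 30.7 ± 7.66 CPM per kilobase in control and IRF4-OE libraries (SD, n = 3 each). Its log2 fold change was -0.43 (edgeR adjusted p = 0.272). UBE2L3, a ubiquitin E2 closely related to UBE2L6, was at 44.6 ± 1.57 and 39.0 ± 0.552 CPM per kilobase (SD, n = 3 each), with a log2 fold change of -0.19 (edgeR adjusted p = 0.241). HERC3 and HERC4, small HERC ligases like HERC5 and HERC6, were at 4.66 and 5.23 CPM per kilobase in control libraries. Their log2 fold changes were -0.59 and -0.11 (edgeR adjusted p = 0.221 and 0.586). The counts of HERC5 and HERC6 were thus low in cells that expressed other HERC genes.

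Counts in the wider enzyme families are set beside the shares over all tested genes, 2.98% higher and 0.182% lower. Of 9 E1 enzymes for other modifiers, 35 other E2 enzymes and 24 other HECT-domain ligases tested, 0 passed edgeR's test in either direction, against 1, 4 and 2 at an unadjusted p under 0.05 and 0 by DESeq2 and limma-voom. Their median log2 fold changes were 0.03, -0.12 and -0.12, and that of all tested genes was 0.01. Among the smallest p-values were those of UBA1, of the E2 genes BIRC6, an inhibitor of apoptosis, and UBE2J1, which acts in degradation at the endoplasmic reticulum, and of the ligases HERC3 and WWP2. BIRC6, UBE2J1 and WWP2 had log2 fold changes of -0.29, -0.29 and -0.36 (edgeR adjusted p = 0.18, 0.203 and 0.242). Of 42 tested ubiquitin-specific proteases other than USP18, 1 rose and 0 fell, with a median of -0.19. The riser was CYLD, which trims ubiquitin chains in NF-kB signalling, from 61.3 ± 5.18 to 96.0 ± 3.43 CPM (SD, n = 3 each), a log2 fold change of 0.65 (edgeR adjusted p = 0.0178), and it was called in 1 of 6 fits without a library. These counts depend on IRF4-OE replicate 1. Without it, the IRF4-OE libraries left lie on the side of control replicate 1, and 3 E1 enzymes, 4 E2 enzymes, 1 ligase and 7 proteases were higher and 2, 14, 12 and 22 lower. Calls over the whole table were also more frequent in that fit, with 19.9% of its 12226 tested genes higher and 25.1% lower. Without any other library, 0 E1, E2 or HECT genes were called.

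Of 14 ubiquitin and ubiquitin-like modifiers, 1 rose and 0 fell (2.98% and 0.182% of all tested genes), around a median log2 change of 0.08. It was UBD, which encodes FAT10, another interferon-inducible modifier built of a pair of ubiquitin-like domains as ISG15 is. UBD was at 0.548, 0.335 and 0.328 CPM in control and 3.78, 5.19 and 3.67 CPM in IRF4-OE replicates 1, 2 and 3. The log2 fold change was 3.34 ± 0.26 (SE; adjusted p = 0.00185 by edgeR), and it was called without each library in turn. Next by p-value came UBB, a ubiquitin gene, at 0.33 and SUMO2, a SUMO gene, at 0.19 on the log2 scale, neither past the threshold. Without IRF4-OE replicate 1, 4 modifiers were higher and 0 lower, when 19.9% and 25.1% of all tested genes were.

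STAT2, which binds USP18 and is not known as an ISG15 ligase or protease, was the gene that passed in a list of other ISG15 ligases and proteases and of binding partners of ISG15 or USP18. Of 15 tested, 1 rose and 0 fell (2.98% and 0.182% of all tested genes), around a median log2 change of -0.29. STAT2, a transcription factor, rose from 35.4 ± 0.797 to 71.3 ± 6.66 CPM (SD, n = 3 each), a log2 fold change of 1.01 (edgeR adjusted p = 0.00365). TRIM25 and ARIH1, ubiquitin ligases reported to attach ISG15 as well, were expressed at 24.1 and 20.5 CPM per kilobase in control libraries. TRIM25 was at 118, 143 and 158 CPM in control and 154, 58.5 and 56.9 CPM in IRF4-OE replicates 1, 2 and 3. Within each group the lowest values were on the side of control replicate 1 on the library axis. On that side, control replicate 1 was above IRF4-OE replicates 2 and 3. What part the axis has in these values was not tested. The log2 fold change of TRIM25, -0.64, did not pass (edgeR adjusted p = 0.367). ARIH1 had -0.29 (edgeR adjusted p = 0.301). USP16, a protease also reported to remove ISG15, was at 46.1 ± 5.32 and 52.6 ± 8.34 CPM per kilobase (SD, n = 3 each) with a log2 fold change of 0.19 (edgeR adjusted p = 0.45). Without IRF4-OE replicate 1, 3 genes of the list were higher and 8 lower, when 19.9% and 25.1% of all tested genes were. On leaving out any other library it was 1 and 0, against 120 to 156 and 3 over the whole table. ITGAL, whose product is part of the receptor for secreted ISG15, had a log2 fold change of -0.03, and IFNAR2, the receptor subunit bound by USP18, had -0.39; neither passed.

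Regulators of ISG15 transcription were among the genes that rose. Of 12 tested, 6 rose and 0 fell (2.98% and 0.182% of all tested genes), around a median log2 change of 0.50. The list was chosen with earlier results of these data known. STAT2 and IRF9, which belong to interferon-stimulated gene factor 3, the complex that binds the motif shown above, both rose. IRF9 went from 10.7 ± 0.455 to 29.9 ± 0.869 CPM (SD, n = 3 each), a log2 fold change of 1.47 ± 0.09 (SE; adjusted p = 8.94e-04 by edgeR). IRF7, an interferon-induced activator, rose from 2.82 ± 0.459 to 11.3 ± 1.39 CPM (SD, n = 3 each), a log2 fold change of 2.00 (edgeR adjusted p = 0.00203). IRF1 and IRF2 had 0.61 and 0.54 (edgeR adjusted p = 0.0204 and 0.0471), and each was called in 1 of 6 fits without a library, whereas STAT2, IRF9 and IRF7 were called in all 6. Without IRF4-OE replicate 1, 9 were higher and 2 lower, when 19.9% and 25.1% of all tested genes were. On leaving out any other library it was 4 and 0, against 120 to 156 and 3 over the whole table.

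Of 19 genes whose proteins have been reported to carry ISG15, 18 were tested, around a median log2 change of 0.10. Of these 3 rose and 0 fell, against 2.98% and 0.182% of all tested genes. Among those that rose were IFIT1, which binds foreign RNA, and RIGI, a sensor of viral RNA. IFIT1 rose from 1.52 ± 0.252 to 27.2 ± 7.54 CPM (SD, n = 3 each), a log2 fold change of 4.15 (edgeR adjusted p = 8.94e-04). RIGI had a log2 fold change of 0.78 (edgeR adjusted p = 0.0272) and was called in 1 of 6 fits without a library. EIF2AK2, the kinase PKR, was at 34.3, 35.3 and 40.4 CPM in control and 63.5, 38.1 and 39.1 CPM in IRF4-OE replicates 1, 2 and 3, with overlap, and did not pass (edgeR adjusted p = 0.355). The gene not tested was MX1, an interferon-induced antiviral GTPase, with 0 counts in all 3 controls and 4, 0 and 3 in IRF4-OE replicates 1, 2 and 3, and so near 0 like HERC6 and USP18. Without IRF4-OE replicate 1, 5 of the list were higher and 5 lower, near the shares of all tested genes in that fit, 19.9% and 25.1%. On leaving out any other library it was 2 and 0, against 120 to 156 and 3 over the whole table. The lists share some genes, among them STAT2, so their counts are not separate.

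**Figure D3:**
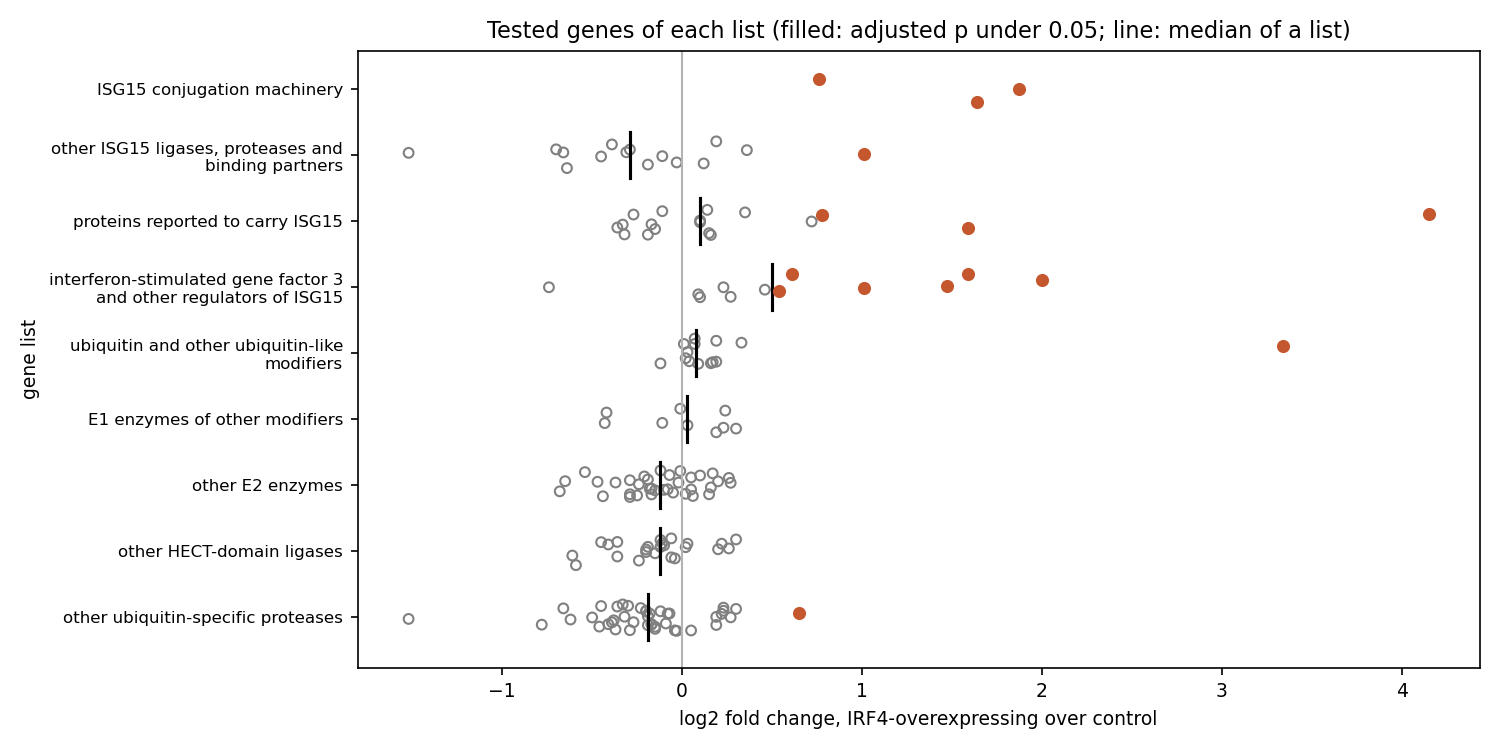
Each point is the log2 fold change (horizontal axis, IRF4-OE over control) of 1 tested gene in the list named on the vertical axis; filled points passed edgeR's test and the black line is the list's median, not drawn for the 3 tested members. The members lie at 0.76, 1.64 and 1.87, the E1, E2 and HECT lists hold no filled point, and the modifier list holds 1, UBD at 3.34.

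Genes with the most similar profile were sought outside the machinery among the 9509 tested genes that averaged 5 CPM or more. The measure was the root mean square difference of log2(CPM + 0.1), each gene set to 0 at its control mean, over the 6 libraries. Nearest to ISG15 were SRGN, the gene of the granule proteoglycan serglycin (difference 0.108), and LINC00158, a long non-coding RNA (0.177). SRGN was at 53.4, 86.4 and 78.0 CPM in IRF4-OE replicates 1, 2 and 3, with the lowest value in replicate 1 as for ISG15. Among the 2 nearest to UBA7 was THSD7B (0.123), and nearest to UBE2L6 were TRIM69 (0.068), a ubiquitin ligase gene of the TRIM family, and CCDC141 (0.072). ISG15 and UBA7 differed by 0.355, and 16 genes outside the machinery were closer to ISG15 than UBA7 was, and 24 closer to UBA7 than ISG15 was. UBE2L6 differed by 0.801 from ISG15 and 0.579 from UBA7, with 108 genes closer to ISG15 and 79 closer to UBA7 than UBE2L6 was. Counted from UBE2L6, 7775 and 4779 genes were closer to it than ISG15 and UBA7 were. The measure takes in the size of a change, and UBE2L6 rose least of the tested members. Genes that hardly changed can therefore count as closer to it, and these numbers do not speak of a shared pattern.

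**Figure D4:**
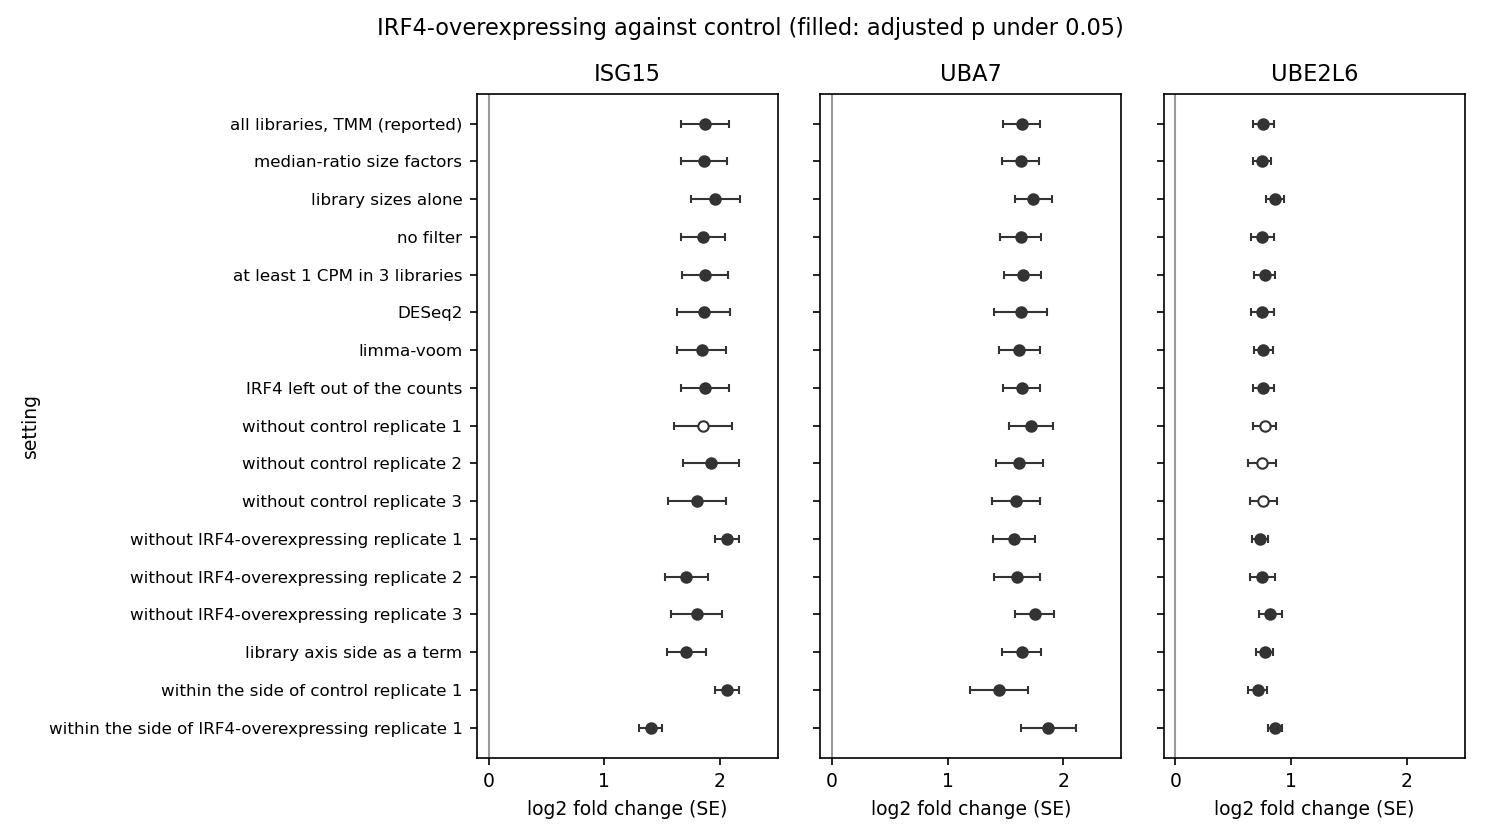
For ISG15, UBA7 and UBE2L6, the horizontal axis gives the log2 fold change with its SE under each setting listed on the vertical axis, and filled points have an adjusted p under 0.05; the fit with a replicate block is not drawn. Every value drawn is above 0; open points are ISG15 without control replicate 1 and UBE2L6 without control replicate 1, 2 or 3. The fits within a side of the library axis each have a group with 1 library.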

How the data were processed

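Stranded poly(A) RNA-seq libraries were made per the labels' protocols. The authors deposited raw read counts per gene, 1 column per library, with a gene width in bases. Genome builds mm9 and hg19 are named per the submitters' processing notes; aligner, counter, annotation and strand setting are not given in the sources used here. Symbols came from RefSeq (GRCh38.p14), matching 23308 of 23459 identifiers. The members and lists were chosen with earlier results of these data known.

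Counts were tested over all genes with edgeR 4.0.16 (R 4.3.3; TMM, filterByExpr, group only, two-sided quasi-likelihood test, Benjamini-Hochberg adjustment). SE is the absolute log2 fold change over the square root of F. Alternatives used DESeq2 1.42.0, limma-voom (limma 3.58.1), other scalings, filters and designs, and each library left out. Terms for the library axis were added after the data were examined. On simulated counts for these 12079 genes, 7.5%, 58.2% and 97% of genes changed 1.5-fold, 2-fold and 4-fold were recovered. Genes were simulated independently of each other, without the shared library axis, so these shares need not hold for the real libraries. Replicates differed by more than sampling noise (chi-square per gene 6.49 to 185).

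Named genes were IRF4, the members, their closest relatives, chromosome neighbours, the 2 most similar genes per tested member, and per list the called genes (at most 4 per direction) or the 2 of smallest p. Also named, after their values were seen, were IRF1, IRF2, MX1, EIF2AK2, TRIM25, ARIH1, USP16, ITGAL, IFNAR2, UBA6 and UBE2Z. Similar genes were not sought for HERC5, HERC6 and USP18, whose levels were near 0. A few of these genes are left out of the text. Figures were drawn with matplotlib 3.10.9.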

Additional observations from a re-analysis of the deposited data

How the results depend on the processing

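ISG15, UBA7 and UBE2L6 were higher with IRF4 under all 17 alternatives run. Without single libraries 1 to 3 of them were called (1 without control replicate 1), genes called higher over the whole table numbered 120 to 2436, and genes called lower 3 to 3071. Both highest values belong to the fit that left out IRF4-OE replicate 1; the other 5 such fits called 120 to 156 higher and 3 lower. DESeq2 called 577 higher and 175 lower, and library sizes alone called 13 lower. With the side of the library axis as a term 709 were higher and 389 lower, within the side of control replicate 1 2309 and 3118, and within the side of IRF4-OE replicate 1 858 and 402. Because these counts defined the sides, such fits give p-values that are too small, and each side has a group with 1 library, assumed to vary like the others. With the replicate block, 0 members, 3 genes higher and 0 lower were called. The edgeR adjusted p there was 0.0917 for ISG15, 0.0775 for UBA7 and 0.142 for UBE2L6. Nothing in the labels says whether the numbers pair the libraries. Deviations of same-numbered libraries from their group means correlated at -0.649, -0.219 and -0.467, and 0 of 6 libraries correlated best with its own number. These deviations largely follow the library axis, so they cannot show whether same-numbered libraries were made together. Scaling by library sizes alone put the median of all tested genes at a log2 fold change of 0.10. Depth limits what can be said of HERC5, HERC6 and USP18.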

Other observations

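The genes beside HERC5 and HERC6 on the chromosome were expressed. PPM1K, the protein-coding gene before HERC6, was at 231 ± 20.6 CPM in control and 255 ± 31.9 CPM in IRF4-OE libraries (SD, n = 3 each), with a log2 fold change of 0.14 (edgeR adjusted p = 0.491). PYURF, the gene after HERC5, was at 9.07 ± 0.749 and 11.3 ± 1.23 CPM (SD, n = 3 each), a log2 fold change of 0.32 (edgeR adjusted p = 0.238). Beside ISG15, HES4 had 0 counts in all 6 libraries, and AGRN had a log2 fold change of 0.74 that did not pass (edgeR adjusted p = 0.193). Beside UBA7, INKA1 and TRAIP had 0.32 and -0.06, and beside UBE2L6, SERPING1, the gene of the complement inhibitor C1INH, had 2 counts in all and SMTNL1 had 0. Beside USP18, TUBA8 had 0.03. None of the tested neighbours passed edgeR's test. For AGRN, INKA1 and PYURF every IRF4-OE library still lay above every control library, as for 13.5% of tested genes. For PPM1K, TRAIP and TUBA8 the groups overlapped.

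For the modifier encoded by UBD, the activating and conjugating enzymes are UBA6 and UBE2Z, which also serve ubiquitin. UBA6 was at 16.4 ± 2.12 and 19.4 ± 3.67 CPM per kilobase and UBE2Z at 35.7 ± 2.35 and 30.0 ± 6.55 (SD, n = 3 each; control and IRF4-OE). Their log2 fold changes were 0.24 and -0.25 and did not pass (edgeR adjusted p = 0.413 and 0.385), whereas UBA7 and UBE2L6, which serve ISG15, passed; the difference between the pairs was not tested.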
